A study of Mus musculus with 6 samples.

Results

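The genes described are those of the mitochondrial ribosomal proteins, the protein subunits of the ribosome inside mitochondria. They were chosen by name: every probe set whose only gene symbol in the platform annotation begins with Mrpl or Mrps followed by a number. The rule found 156 probe sets of 76 genes, 47 Mrpl and 29 Mrps, among 18193 genes with a probe set of their own. Each gene is represented by its brightest probe set, and all 76 were bright enough to be tested. The RefSeq table of the mouse holds 78 protein-coding genes with such names, and Mrpl30 and Mrpl53 are left out here because their probe sets carry a second gene's symbol as well. The arrays measured RNA of pancreatic islets, the hormone-secreting cell clusters of the pancreas, isolated by collagenase digestion with 3 arrays for mice that were not pregnant (0 days post coitum, or dpc) and another 3 for pregnant mice at 12.5 dpc. The series set out to find what makes islets proliferate in pregnancy, and the labels give the islets no other treatment and name no strain or age.

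The mitochondrial ribosome makes only the few proteins that mitochondrial DNA encodes, all of them membrane subunits of the respiratory chain and ATP synthase. Its RNAs are transcribed in the mitochondrion, whereas every one of its proteins is encoded in the nucleus, made in the cytosol and imported. The large subunit joins amino acids and holds the exit tunnel, and the small subunit binds and decodes the mRNA. Many of these proteins descend from those of bacterial ribosomes and keep their numbers, and others occur in mitochondria without a bacterial counterpart. In beta cells, ATP from the respiratory chain couples glucose to insulin release.

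Each array gave a MAS5 signal per probe set, an intensity on a linear scale that is corrected for background and scaled. The 2% trimmed mean was 500.003 on every array, the array medians lay between 86.1 and 100.3, and arrays of a group correlated at 0.978 to 0.982. The endocrine identity of the tissue was evident in the beta cell markers, whose 8 genes had mean signals of 4664 (Pdx1) to 50135 (Iapp). Acinar markers, for the enzyme-secreting cells around islets, were present on every array: 17 of 18 tested fell in pregnancy, their median log2 difference was -1.21, and none of the 19 on the array was at 0. Their summed signal lay between 212564 and 402350 on non-pregnant arrays and between 123507 and 202012 on pregnant ones. All 9 markers of dividing cells rose, with a median of 1.55. Of 9 markers of fibroblasts and stellate cells 3 fell, with a median of -0.58, and their summed signal was lower on every pregnant array (9924 to 12876) than on any non-pregnant one (14386 to 14747). Summed signals, non-pregnant against pregnant, also lay apart for immune (6177 to 6865 against 9538 to 10547), endothelial (9434 to 10226 against 8444 to 9374) and duct markers (5573 to 5935 against 4654 to 5067). Of those tested, 1 of 8 immune markers rose, and 1 of 9 endothelial and 1 of 3 duct markers fell. A single bright gene carried much of the immune and the duct sum, C1qa (mean signal 5402) and Krt7 (5120). With each tested marker centred on its own mean, the immune median overlapped between groups (-0.14 to 0.05 against -0.12 to 0.13). So did the duct median (-0.40 to 0.28 against -0.06 to 0.04). Of the 8 beta cell markers 2 fell, and of 6 of other islet cells 1 fell. These are bulk samples, in which fewer cells of a type and less RNA per cell cannot be told apart. The labels leave unsaid whether the arrays of a group stand for separate animals. The p-values thus reflect sample-to-sample spread alone, possibly technical, and 3 arrays a group limit the precision.

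The mitochondrial ribosomal protein genes stayed close to their non-pregnant levels, and those that passed the test were slightly higher in pregnancy. Of the 76, 9 rose (11.8%) and 0 fell, where 6.1% of all 12914 genes tested rose and 5.79% fell (limma, Benjamini-Hochberg adjusted p under 0.05). At an unadjusted p under 0.05, 16 were higher and 1 was lower, beside 1573 higher and 1943 lower of the 12914. The family was brighter than the genes it is set against, with a median signal of 1441 against 568. With only the brightest 40% of probe sets tested, 7.43% of them rose and 7.79% fell, and 12 genes of the family rose and 0 fell. Log2 differences, taken on log2(signal + 16), ran from -0.23 for Mrpl3 to 0.38 for Mrpl51, with a median of 0.05 and 47 of 76 above 0. Over all genes tested the median was -0.04, 43.5% were above 0 and the extremes were -2.00 and 6.17. No mitochondrial ribosomal protein gene differed by 0.5 or more, as 1406 of all genes did. The ratio of the pregnant to the non-pregnant mean signal ran from 0.851 (Mrpl3) to 1.31 (Mrpl51). The count of 9 was 3 without pregnant replicate 2, 4 without pregnant replicate 1, 5 without pregnant replicate 3 or non-pregnant replicate 2, 5 with no filter on dim probe sets and 5 with a gene's probe sets averaged. It was 0 with a variance model that has no trend on signal (14 higher at an unadjusted p under 0.05). The count was 1, Mrps12, with the acinar marker median of each array as a covariate. Of all probe sets tested, 1.45% rose without that trend, 1.30% with the covariate and 2.25% with no filter, beside 4.79% in the main fit. With 1 array left out 2.99% to 4.74% rose, and with averaging 5.20% of all genes. The 5 called with probe sets averaged were Mrpl24, Mrpl40, Mrps12, Mrps16 and Mrps18b, of which 4 are among the 9. Each has a single probe set, so averaging could not change its signals.

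**Figure D1:**
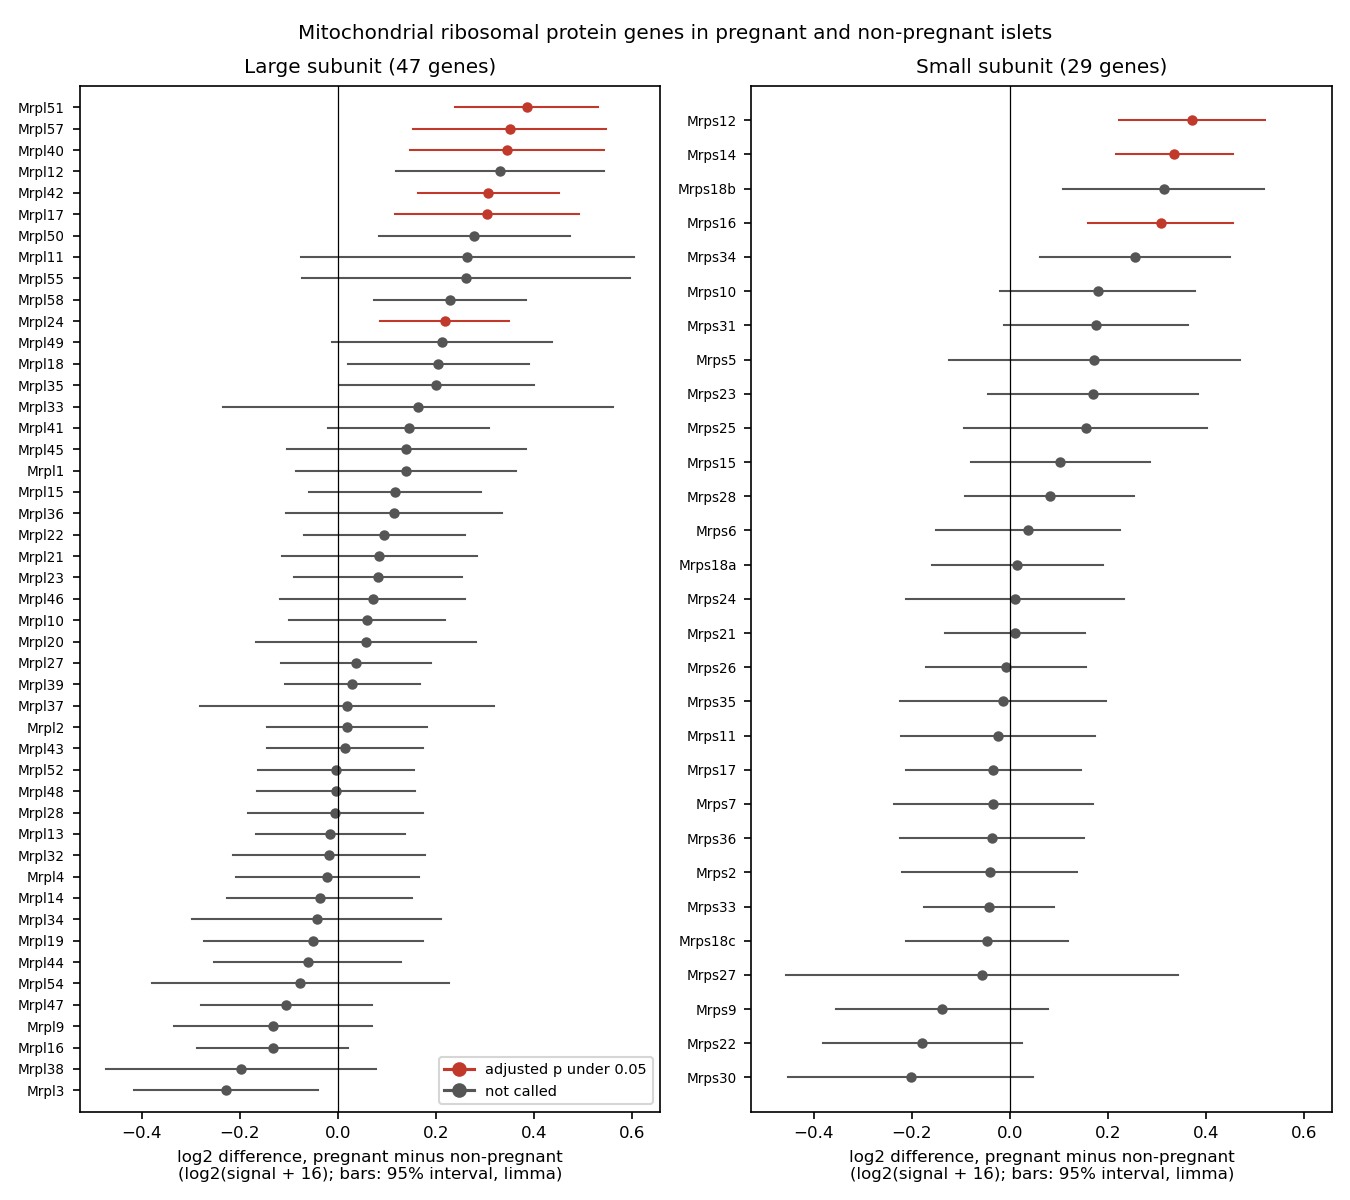
Log2 difference (pregnant minus non-pregnant) of each of the 76 genes, with limma's 95% interval, for Mrpl genes (left) and Mrps genes (right). The 9 genes in red passed an adjusted p of 0.05, all of them to the right of 0, and most of the other intervals span 0.

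For the 67 genes that did not pass, the 95% interval of the difference was taken for the brightest probe set alone. In 65 of them it lay within a 1.5-fold change in either direction. The exceptions were Mrpl11 and Mrpl55, whose intervals reached 0.60 on the log2 scale. Intervals of other probe sets of the 67 genes reached further, to -2.00 for a dim one of Mrpl19 and 1.39 for a dim one of Mrpl34. Of those of Mrpl11, 1 passed the test. Mrpl11 belongs to the stalk base where translation factors dock. Across the 76 genes the standard error of the difference had a median of 0.09 (0.05 to 0.18). The widest belonged to Mrpl33 and to Mrps27, the gene with the dimmest probe set (mean signal 235).

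Among Mrps genes, Mrps12, Mrps14 and Mrps16 rose. Mrps14, a protein of the small subunit head, had signals of 5076, 4997 and 5235 on the non-pregnant arrays and of 6354, 6462 and 6512 on the pregnant arrays, each in the order of replicates 1, 2 and 3. Every pregnant array was thus above every non-pregnant one, by more than the spread within either group. The means were 5102.5 ± 121 (SD, n = 3) and 6443 ± 80.8 (n = 3), which differed by 0.34 ± 0.05 on the log2 scale (limma's SE; adjusted p = 0.0024). Mrps12, the counterpart of the bacterial protein of the decoding centre in which streptomycin resistance arises, read 6546.5, 5458 and 6146 in non-pregnant and 7959.9, 7722 and 7747 in pregnant islets. The pregnant arrays lay close together and above the more scattered non-pregnant ones. Its means of 6050.2 ± 550.5 and 7809.5 ± 131 differed by 0.37 ± 0.07 (adjusted p = 0.0050). Mrps16, whose bacterial counterpart takes part in assembling the small subunit, had 2479, 2550.2 and 2295 in non-pregnant and 2964.5, 3131 and 2977 in pregnant islets. Again the groups did not overlap, and the difference was 0.31 ± 0.07 (adjusted p = 0.014, and 0.068 without pregnant replicate 2).

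Among Mrpl genes, 6 rose. Mrpl51, which has no bacterial counterpart, showed the largest difference of the family. Its signals were 3082, 2950.1 and 2950.2 in non-pregnant and 3975.5, 4134 and 3647 in pregnant islets, with means of 2994 ± 75.9 and 3919 ± 248 (SD, n = 3 each). The non-pregnant arrays were nearly level and the lowest pregnant one stood well above them, for a log2 difference of 0.38 ± 0.07 (adjusted p = 0.0035). Mrpl42, another protein found only in mitochondria, had 3037, 3016 and 3018 against 3831, 3933 and 3482. Its difference was 0.31 ± 0.07 (adjusted p = 0.012), without overlap, and leaving out pregnant replicate 1 or 2 gave an adjusted p of 0.063 or 0.065.

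The other 4 Mrpl calls rested on smaller margins. Mrpl57, which also lacks a bacterial counterpart, read 4901, 3829 and 3848 in non-pregnant and 5606, 5094 and 5253 in pregnant islets (log2 difference 0.35 ± 0.09, adjusted p = 0.030). Mrpl17, of the rim of the exit tunnel, read 5286, 4254 and 4208 against 5834, 5771 and 5303 (0.30 ± 0.09, adjusted p = 0.045). In both, non-pregnant replicate 1 was the high array of its group and came near the lowest pregnant one. Mrpl40, of the central protuberance that crowns the large subunit, had 1486, 1206 and 1299 against 1692, 1782 and 1594 (0.34 ± 0.09, adjusted p = 0.033). Mrpl24, the tunnel protein whose bacterial counterpart starts large subunit assembly, had 3424, 3556 and 3577.5 against 3969.5, 4089.6 and 4226 (0.22 ± 0.06, adjusted p = 0.041). The groups of these 2 did not overlap either. Leaving out 1 array lifted the adjusted p above the threshold in 5 of 6 cases for Mrpl57, Mrpl17 and Mrpl40, where only the fit without non-pregnant replicate 1 kept the call, and in all 6 for Mrpl24. The highest values were 0.13 for Mrpl57, 0.16 for Mrpl17 and 0.13 for Mrpl40, and Mrpl24 had 0.067 to 0.14.

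**Figure D2:**
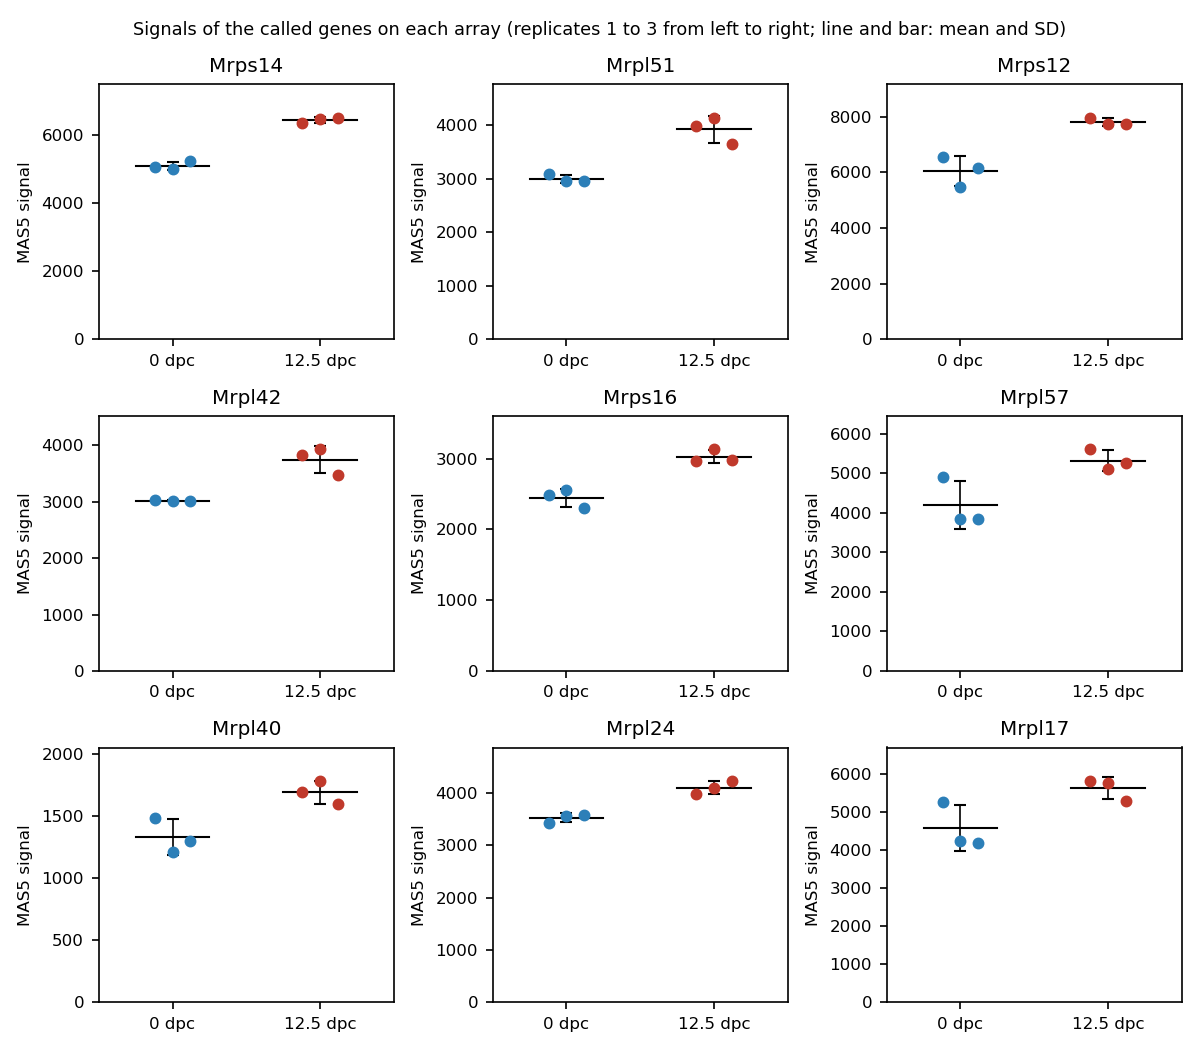
MAS5 signal (linear axis from 0) of the 9 genes that rose, on each array at 0 dpc (blue) and 12.5 dpc (red), with the mean and SD of each group. All 9 genes have their 3 pregnant arrays above their 3 non-pregnant arrays, and for Mrpl57 and Mrpl17 non-pregnant replicate 1 lies well above the other 2.

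Promoter sequence is shown for genes that rose, since they moved in the same direction. The RefSeq promoter table (mouse, build GRCm38.p6) holds 67 of the 76 genes, all 9 that rose among them, with 250 bases before and 50 after each start. Both strands were searched for 3 short cores: GCGCATGC, the core bound by NRF1, ACTTCCGG, bound by ETS factors such as GABP, and AAGATGGC, bound by YY1. These factors are known regulators of nuclear genes for mitochondrial proteins. Matches may overlap, as a pair of NRF1 matches on opposite strands do in Mrpl32. The upstream stretches below hold each kind once, in capitals, for Mrpl51 (ETS, reverse strand, position -90 from the start), Mrps12 (YY1, reverse strand, position -199) and Mrpl17 (NRF1, position -11), and hold none for Mrps14. Each line reads 5′ to 3′ on the gene's strand: Mrpl51 from chr6:125192050-125192199, plus strand; Mrps12 from chr7:28741922-28742071, minus strand; Mrpl17 from chr7:105811088-105811237, minus strand; Mrps14 from chr1:160195065-160195214, plus strand.
Mrpl51: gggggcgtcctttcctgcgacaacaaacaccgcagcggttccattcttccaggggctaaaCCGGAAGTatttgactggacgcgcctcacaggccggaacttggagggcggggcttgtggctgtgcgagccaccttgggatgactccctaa
Mrps12: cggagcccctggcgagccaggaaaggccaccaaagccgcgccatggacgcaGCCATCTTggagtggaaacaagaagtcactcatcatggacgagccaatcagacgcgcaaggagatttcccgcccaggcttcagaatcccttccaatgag
Mrpl17: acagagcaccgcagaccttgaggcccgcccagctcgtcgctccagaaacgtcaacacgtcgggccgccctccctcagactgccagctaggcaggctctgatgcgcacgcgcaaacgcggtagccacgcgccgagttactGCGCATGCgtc
Mrps14: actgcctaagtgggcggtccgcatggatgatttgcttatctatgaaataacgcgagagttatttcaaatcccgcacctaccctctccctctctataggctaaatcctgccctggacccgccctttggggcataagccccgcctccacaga

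Across the 67 promoters, the ETS core was in 12 (17.9%), the YY1 core in 12 (17.9%) and the NRF1 core in 8 (11.9%). In the promoters of the 17492 protein-coding genes of the table these shares were 5.69%, 3.57% and 3.94%, and in all 27025 genes 4.31%, 3.19% and 3.05%. Mrpl32 held 4 matches of the NRF1 core and 1 of the YY1 core within its 300 bases and had a log2 difference of -0.02. Of the 9 genes that rose, 4 held a core: the 3 shown and Mrpl42, whose YY1 core is at position 28. The ETS core was in 1 of the 9 (11.1%) and in 11 of the 58 others (19.0%), the NRF1 core in 1 (11.1%) and 7 (12.1%), and the YY1 core in 2 (22.2%) and 10 (17.2%). A match is a run of letters and no measure of binding.

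Mrpl genes had a median log2 difference of 0.07 (6 of 47 rose, 31 above 0) and Mrps genes of 0.01 (3 of 29 rose, 16 above 0). The letter in a symbol follows the first assignment of the protein, and structures place Mrps18a and Mrps30 in the large subunit. Genes with a number in the bacterial range (Mrpl up to 36, Mrps up to 21) had a median of 0.06 and 5 of 43 rose. Those with higher numbers, many but not all of which lack a counterpart in bacterial ribosomes, had 0.03 and 4 of 33 rose. All 4 of the latter were Mrpl genes (of 20). Of 13 Mrps genes with higher numbers, Mrps30 among them, 0 passed, with 1 higher and 0 lower at an unadjusted p under 0.05. Over all genes tested 6.1% rose, and groups as small as these 13, or the places below, cannot show a departure from that share. The groups were not tested against each other.

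By place in the ribosome, the stalk genes Mrpl10, Mrpl11 and Mrpl12 had log2 differences of 0.06, 0.26 and 0.33, and 0 of 3 passed (1 at an unadjusted p under 0.05). Mrpl12, which forms the flexible stalk and is also known to bind mitochondrial RNA polymerase, read 1484, 1180.1 and 1326 in non-pregnant and 1824, 1633 and 1560.1 in pregnant islets. Its groups did not overlap, and it missed the threshold narrowly (0.33 ± 0.10, adjusted p = 0.054). It passed in 6 of 18 other settings, with the lowest adjusted p, 0.025, when non-pregnant replicate 1 was left out. Of the 7 genes at the exit tunnel, Mrpl17 and Mrpl24 rose, and Mrpl45, which anchors the ribosome to the inner membrane, had 0.14 ± 0.11 (adjusted p = 0.52). In the central protuberance Mrpl40 rose among 5. In the small subunit head Mrps14 rose among 4, and Mrps7, Mrps9 and Mrps10 had -0.03, -0.14 and 0.18.

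The 3 relatives of bacterial S18 differed among themselves in their values. Mrps18b had 881, 828 and 1021 in non-pregnant and 1135.5, 1126 and 1132 in pregnant islets (0.31 ± 0.09, adjusted p = 0.058), without overlap. Mrps18a (0.02 ± 0.08) and Mrps18c (-0.05 ± 0.08) lay near 0, with adjusted p-values of 0.94 and 0.78. Mrpl58, a peptidyl-tRNA hydrolase built into the large subunit, had 0.23 ± 0.07 (adjusted p = 0.066), Mrpl50 0.28 ± 0.09 (0.074) and Mrps34 0.26 ± 0.09 (0.10). Mrps36, named as a ribosomal protein but known to belong to the 2-oxoglutarate dehydrogenase complex, had -0.04 ± 0.09 (adjusted p = 0.86). Mrps33, among the brightest probe sets, had -0.04 ± 0.06 (adjusted p = 0.745), and 0.033 with each array centred on its median.

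None of the lowest differences passed the test. Mrpl3, a protein that reaches toward the peptidyl transferase centre, read 1429.6, 1247 and 1276.5 in non-pregnant and 1178, 1068 and 1118.5 in pregnant islets. Its groups did not overlap (-0.23 ± 0.09, adjusted p = 0.13). Mrps30, once described as a cell death protein, read 749, 732 and 620.1 against 659, 621 and 540.0, with overlap (-0.20 ± 0.11, adjusted p = 0.33). Mrpl38 (-0.20 ± 0.13), Mrps22 (-0.18 ± 0.09) and Mrps9 (-0.14 ± 0.10) had adjusted p-values of 0.40, 0.28 and 0.46. Groups lay apart with pregnancy higher in 18 of the 76 genes, against 13.9% of all genes tested, and with pregnancy lower in 5, against 17.9%.

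Of the 76 genes, 42 had more than 1 probe set and 37 more than 1 that was tested. Of these 37, 19 had all tested probe sets on the same side of 0. Among 138 tested probe sets, 10 rose and 0 fell (1294 of 27022 probe sets, 4.79%, rose over the whole array, 4.78% fell and 9.57% passed in either direction). None of the 37 genes had all its tested probe sets past the threshold, and none had calls in both directions. In Mrpl51, Mrpl57, Mrps14 and Mrpl17 only the brightest probe set passed, and the others had 0.01 and 0.27 for Mrpl51, 0.06 for Mrpl57, 0.02 and 0.04 for Mrps14 and 0.07 and 0.24 for Mrpl17. Those other probe sets were dimmer, with mean signals of 208 and 347 against 3456 for Mrpl51 and of 66.9 and 59.6 against 5109 for Mrpl17. In Mrps14 they had 623 and 102 against 5773, and the probe set at 623, above the median of 568 over all genes tested, had an adjusted p of 0.93. Averaged over probe sets the differences were 0.22 for Mrpl51, 0.21 for Mrpl57, 0.13 for Mrps14, 0.21 for Mrpl17 and, with its untested second probe set, 0.07 for Mrpl42, and none of these 5 passed (adjusted p = 0.12 to 0.81). Mrpl11 went the other way. Its brightest probe set overlapped between groups (0.26 ± 0.16, adjusted p = 0.35), while another read 1104, 923 and 1013 in non-pregnant and 1435, 1290.4 and 1416 in pregnant islets (0.44 ± 0.09, adjusted p = 0.0096). The widest disagreement was in Mrpl19, where the brightest probe set had -0.05 and a dim one -1.18 (adjusted p = 0.074). Mrps12, Mrps16, Mrpl40 and Mrpl24 have a single probe set, so nothing on the array checks them.

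**Figure D3:**
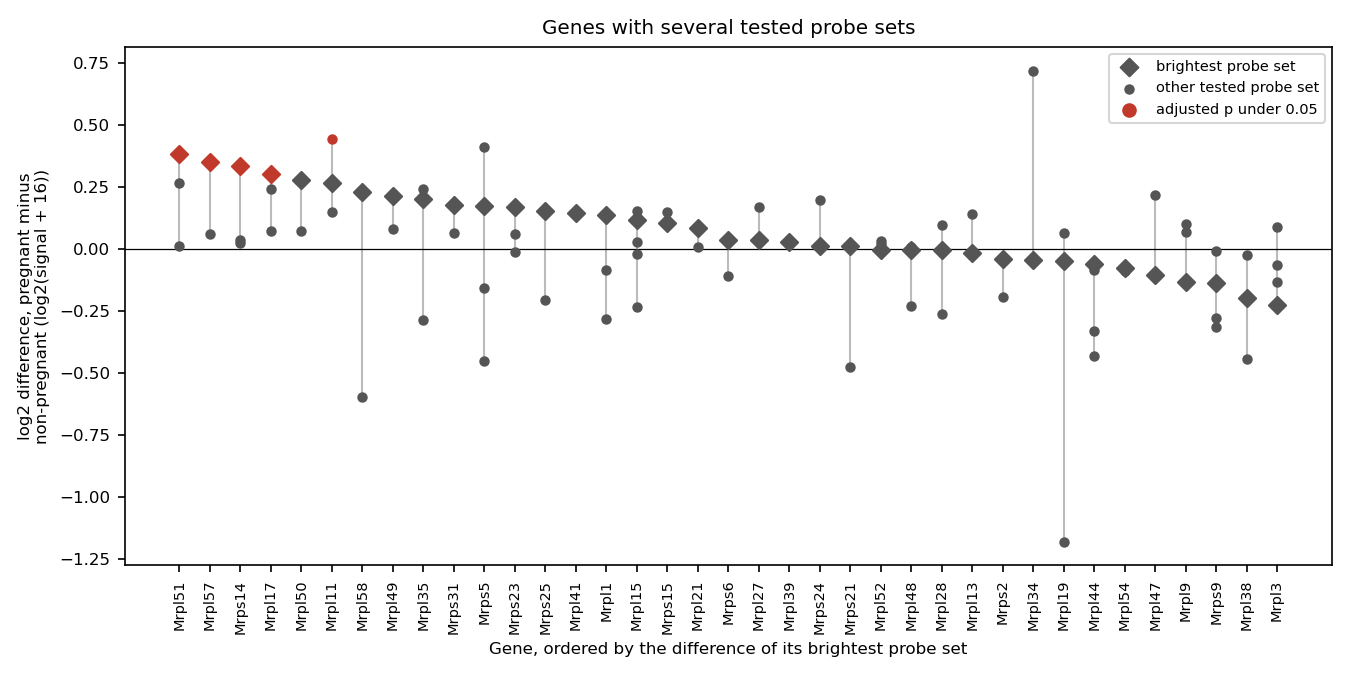
Log2 difference of each tested probe set of the 37 genes with several, with the brightest as a diamond and calls at adjusted p under 0.05 in red. In Mrpl51, Mrpl57, Mrps14 and Mrpl17 the diamond alone is red, and in Mrpl11 a dimmer probe set is.

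The family also varied between arrays of a group. Centred per gene, its median on the non-pregnant arrays was 0.04, -0.06 and -0.07, and on the pregnant arrays 0.07, 0.05 and -0.01, in the order of replicates 1, 2 and 3. Non-pregnant replicate 1 thus lay among the pregnant arrays and above pregnant replicate 3. It was the highest non-pregnant array in 45 of 76 genes (59.2%), against 33.3% of all genes tested, and pregnant replicate 3 was the lowest pregnant array in 42 (55.3%), against 33.4%. Pregnant replicate 1 was the highest pregnant array in 41 (53.9%), against 32%, so the arrays numbered 1 were the high ones of the family in both groups. Without non-pregnant replicate 1 the median difference of the family was 0.09 and 11 genes rose, and without non-pregnant replicate 3 it was 0.02. The acinar median, over the arrays in the same order, was 0.94, -0.12, 1.00, -0.91, -0.64 and -0.24, high on non-pregnant replicates 1 and 3, and the dividing cell median was -0.90, -0.72, -0.48, 0.45, 0.87 and 0.91. The fibroblast and stellate median was 0.30, 0.27, 0.32, -0.51, -0.33 and -0.07. None of these 3 medians overlapped between the groups. The part of acinar share, of dividing cells, of fibroblasts or of other cell types in the rises was not tested beyond the covariate fit. That of a single array was not tested beyond the fits without an array. In that covariate fit the family's median was 0.05, as without it, and Mrpl51 had 0.35 and Mrps14 0.39, with adjusted p-values of 0.20 and 0.080. The acinar covariate itself lay apart between the groups, so acinar content and pregnancy cannot be told apart in that fit.

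**Figure D4:**
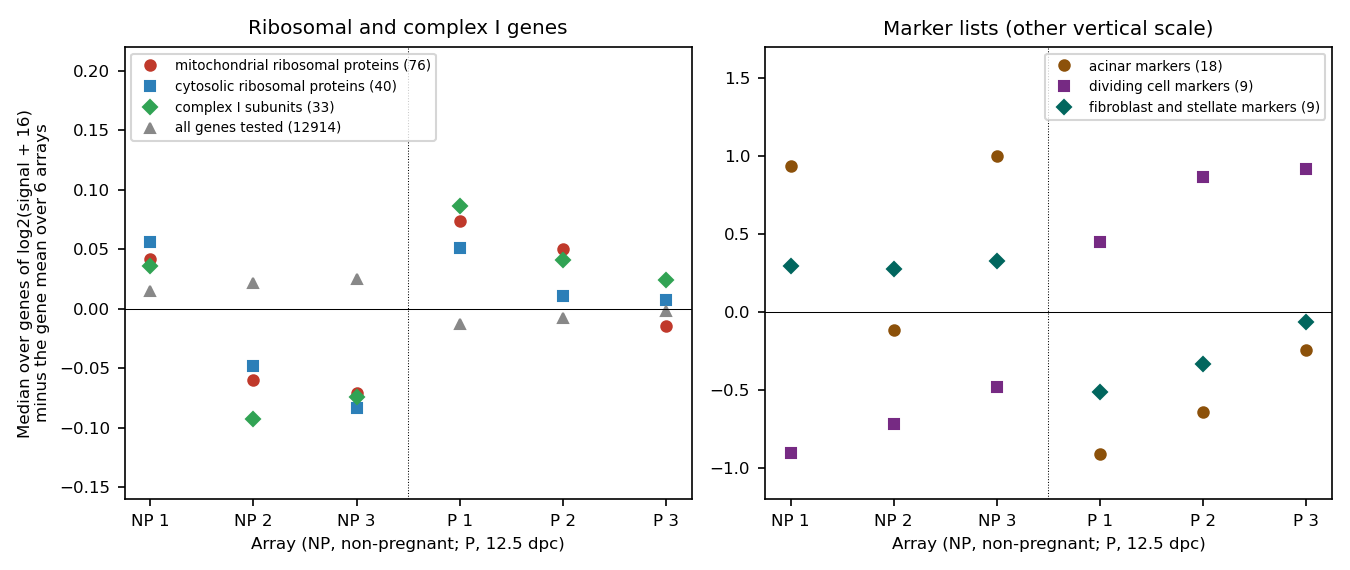
Median over genes of the centred log2(signal + 16) on each array, for 76 mitochondrial ribosomal protein genes beside cytosolic ribosomal protein genes, complex I genes and all genes tested (left) and for marker lists on a wider scale (right). Non-pregnant replicate 1 sits with the pregnant arrays for both ribosomes and complex I, while acinar markers are high on non-pregnant replicates 1 and 3.

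Partner genes of mitochondrial translation are given by list, to be read against the 6.1% of all genes tested that rose and the 5.79% that fell. Of the subunits that carry other names, 0 of 4 passed, in either direction and also at an unadjusted p under 0.05. Chchd1 had 0.14 ± 0.07 and Gadd45gip1 0.15 ± 0.09, while Dap3, the GTP-binding protein of the small subunit, had -0.0043 ± 0.07 and Ptcd3, which sits at the mRNA entrance, -0.10 ± 0.09. Of 22 genes for ribosome assembly and modification, 1 rose and 0 fell (2 higher and 4 lower at an unadjusted p under 0.05). It was Tfb1m, the methyltransferase that modifies the small ribosomal RNA, with 689, 544 and 614 in non-pregnant and 815, 902 and 813 in pregnant islets. These groups did not overlap (0.45 ± 0.11, adjusted p = 0.022, and 0.16 with its 2 probe sets averaged). Of 12 translation factors 0 rose (1 higher at an unadjusted p under 0.05) and 1 fell. Tufm, the elongation factor that brings charged tRNA to the ribosome, read 511.5, 622 and 532.5 against 363, 419 and 322 (-0.58 ± 0.13, adjusted p = 0.017). Averaged over its 4 probe sets Tufm had -0.10 (adjusted p = 0.82). Tsfm, the factor that recharges Tufm with GTP, had 0.33 ± 0.10 (adjusted p = 0.063).

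Of 17 genes for mitochondrial tRNA charging 0 passed (1 higher at an unadjusted p under 0.05), with a median of 0.11. Of 18 genes for upkeep and transcription of mitochondrial DNA, 0 rose and 2 fell (0 higher and 5 lower at an unadjusted p under 0.05). Those that fell were Polg2, the accessory subunit of the mitochondrial DNA polymerase (-0.40 ± 0.10, adjusted p = 0.028), and Dguok, a kinase that supplies its nucleotides (-0.35 ± 0.10, adjusted p = 0.046). Among 9 regulators, 1 rose and 0 fell (2 higher and 2 lower at an unadjusted p under 0.05). The riser was Pprc1, a coactivator related to PGC-1 (0.46 ± 0.12, adjusted p = 0.032). It read 332, 368 and 404 in non-pregnant and 531.5, 476 and 528.5 in pregnant islets, without overlap. Gabpa, the ETS factor subunit, had -0.27 ± 0.08 (adjusted p = 0.060), Yy1 -0.16 ± 0.06 (0.14) and Myc, a growth regulator, 0.28 ± 0.11 (0.17). Tfb1m, Tufm, Polg2, Dguok and Pprc1 all missed the threshold with no variance trend and with the acinar covariate. Leaving out 1 array ended the call in 5 of 6 cases for Tfb1m and Pprc1, 3 for Tufm and 4 for Polg2, and in all but the fit without non-pregnant replicate 3 for Dguok.

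Among like families, cytosolic ribosomal proteins (40 genes tested) were centred at 0.04, and of them 1 rose and 0 fell. Nuclear-encoded complex I subunits, the partners of subunits that the mitochondrial ribosome makes, were centred at 0.09, where 4 of 33 rose and 0 fell. Over all genes tested 6.1% rose and 5.79% fell. The families differ in brightness, with median signals of 18757 (cytosolic ribosome), 7224 (complex I) and 1441 (mitochondrial ribosome). At an unadjusted p under 0.05, 4 cytosolic ribosomal genes were higher and 2 lower, and 10 complex I genes were higher and 1 lower. The quartiles were -0.03 and 0.18 for the mitochondrial ribosomal protein genes and -0.20 and 0.12 for all genes tested. The families were not tested against each other.

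**Figure D5:**
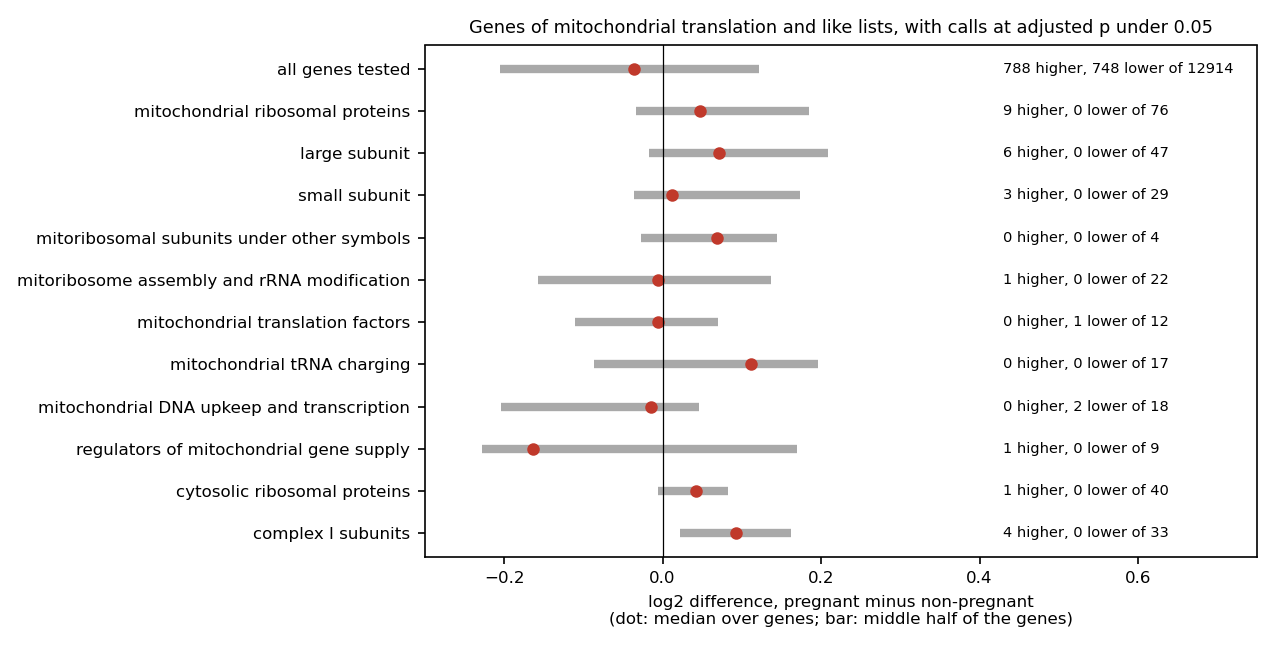
Median (dot) and interquartile range (bar) of the log2 difference for all genes tested, the mitochondrial ribosomal proteins, partner lists, cytosolic ribosomal proteins and complex I subunits, with counts of calls at the right. The mitochondrial ribosomal protein genes are centred at 0.05 with 9 higher and 0 lower of 76.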

How the data were processed

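Affymetrix arrays were hybridised with biotinylated cRNA made from 100 ng of total RNA, per the labels' protocols. The authors deposited linear-scale intensities made with MAS5, per the submitters' processing notes. Neither its version nor its target value is given in the sources used here. The 45101 probe sets held 64 controls, which were left out. Gene names came from the platform annotation (34958 probe sets with 1 symbol, 932 with several, 9211 unnamed here), and all 76 genes matched the RefSeq gene table by Entrez identifier. Values were taken as log2(signal + 16), with no further normalization, since the trimmed means were equal. The pseudocount understates changes of dim genes. The brightest 60% of probe sets, 27022, were tested with limma 3.58.1 in R 4.3.3 (lmFit, eBayes with a variance trend; 2-sided; Benjamini-Hochberg adjustment over all tested). The fit was tested on simulated data with independent noise and with added changes larger than any in this family. That test thus does not cover differences as small as those reported here. Errors are SDs of signals and SEs of log2 differences. A promoter match was an exact run of letters. Figures used matplotlib 3.10.9.

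The genes and lists were chosen with earlier results of these data known. Named genes were those past the threshold, the 5 highest, 5 lowest and 5 brightest, those with some probe sets past it, and up to 4 with the smallest p of each partner list. Others were added for their place in the ribosome or, with an adjusted p under 0.1, after their values were seen. Alternatives were other pseudocounts, normalizations, filters and variance models, array weights, a replicate block, the acinar covariate, averaged probe sets and each array left out.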

Additional observations from a re-analysis of the deposited data

How the results depend on the processing

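In each of the 18 other settings 0 genes of the family were called lower and the family's median stayed above 0. Its median was 0.12 with each array centred on its median, which raises all probe sets alike, and 0.02 to 0.09 with 1 array left out. Genes of the family above 0 numbered 67 of 76 with that centring and 42 to 56 with 1 array left out, beside 47 in the main fit. The count of 9 became 5 with no filter, 0 without the variance trend and 1 with the acinar covariate. Of all probe sets, 2.25% rose with no filter, 1.45% without the trend and 1.30% with the covariate. The count was 5 with probe sets averaged, 4 of them among the 9, beside 5.20% of all genes that rose. With 1 array left out it was 3 to 11, of which 3 to 8 were among the 9, beside 2.99% to 4.74% of all probe sets. With quantile normalization and with median centring it stayed at 9, of which 7 and 8 were among the first 9. Over all probe sets 2587 passed, 603 without the trend, 516 with the covariate and 1482 to 2259 with 1 array left out. The cause of these shifts was not tested, and with no filter the number of tests is also larger. Mrps12 passed in 17 of 18 settings, and Mrpl51, Mrps14 and Mrps16 in 15 each. Signs turned for Mrps33 (0.033) and Dap3 (0.071) with median centring, for Myc with the covariate (-0.016), for Mterf3 (0.084), Trmt10c (0.012), Nars2 (-0.12), Ears2 (-0.054) and Mrpl58 (-0.18) with probe sets averaged, and for Dap3 with 1 array left out (-0.043 to 0.027); none of these had passed. Over all probe sets tested, arrays with the same replicate number did not deviate together (correlations of -0.07 to 0.03), so the numbers were not taken as pairs. In this family, though, the arrays numbered 1 were the high ones in both groups. A factor shared by number was not tested beyond the replicate block. With that block 10 genes rose, 8 of them among the 9, beside 4.48% of all probe sets.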
